A study of Homo sapiens with 6 samples.

Results

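The genes described here are the 6 rows of the count table that carry the symbols of the estrogen receptors (ESR1, ESR2), the progesterone receptor (PGR), the glucocorticoid receptor (NR3C1), the mineralocorticoid receptor (NR3C2) and the G protein-coupled estrogen receptor (GPER1). They were picked out by symbol from 46427 genes, and the group was chosen with earlier results of these data known. RNA-seq was performed on Hs578T, a human triple-negative breast cancer cell line, with 3 biological replicates of cells that stably carry a control shRNA (shCTRL) and 3 of cells that carry an shRNA against CCN3 (shCCN3). Both lines were made by retroviral transduction of a pSUPER vector and selected with puromycin, so that the shCTRL cells also carry a vector. A single shRNA against CCN3, #2, was sequenced, so effects of CCN3 loss and of this shRNA or of this selected line cannot be told apart. The question put to these genes is whether receptors for steroid hormones differ between the lines.

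Steroid hormones cross the plasma membrane and bind receptors that act as transcription factors. Unliganded receptors for glucocorticoids, mineralocorticoids and progesterone are held by HSP90 chaperone complexes, and hormone-bound receptors move onto DNA, where coactivators and corepressors set the transcription of their target genes. NR3C1, NR3C2 and PGR recognise nearly the same palindrome, the glucocorticoid response element (GRE), whereas ESR1 and ESR2 recognise the estrogen response element (ERE). GPER1 is a membrane receptor that signals through G proteins, cyclic AMP and release of EGFR ligands. In breast cancer, ESR1 and PGR are the receptors whose absence, with that of HER2, defines triple-negative tumours, and NR3C1 is widely expressed.

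The core of the GRE was searched for in the promoters of the receptors and of their target genes, and the matches in a receptor and in a target that rose are shown because they are the letters these receptors read. A promoter here is the stretch from 250 bases before to 50 bases after a RefSeq transcription start on GRCh38.p14, and both strands were searched. The full GRE (AGAACA and its reverse complement TGTTCT with any 3 bases between) occurred in 1 of 35116 promoters (0.00285%), the ERE (GGTCA and TGACC with any 3 bases between) in 20 (0.057%) and the GRE core (ACANNNTGT) in 1885 (5.37%). The full GRE contains the core. Of the 27 promoters of the 6 receptors, 1 held the core and 0 held the full GRE or the ERE. This match lies in an ESR1 promoter, at chr6:151656588-151656612 on the + strand, and begins 76 bases before the start (position -76). Of the 41 glucocorticoid and mineralocorticoid response genes listed, 33 had a promoter in the table, and 7 of their 56 promoters (12.5%) held the core. These belonged to 4 genes, of which TSC22D3 rose, NEDD4L did not pass the test (log2 fold change 0.05, adjusted p = 0.6 from edgeR), and IRS2 and FAM107A had too few counts to be tested. The match shown is in a promoter of TSC22D3 on the - strand, beginning at position -7. With its flanking bases it spans chrX:107775979-107776003. The same site lies at position -208 of another, overlapping TSC22D3 promoter, and both promoters are among the 7 counted. Each sequence is written in the direction of its gene, with the matched core in capitals and the flanking bases in lower case.
ESR1: atgcttgaACAAACTGTgtaagctt
TSC22D3: ggtaatttACATGCTGTcatatccc
A match describes letters only. Binding of a receptor was not measured.

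The libraries held between 56159110 and 68393177 counts. Levels are given in CPM, counts divided by the TMM-adjusted size of the library, and a gene with 3 counts stands at 0.0435 to 0.054 CPM, a limit for counting error alone. CCN3, the target of the shRNA, was at 101 ± 2.43 CPM (SD, n = 3) in shCTRL and 47.0 ± 0.469 CPM (SD, n = 3) in shCCN3 cells. Replicate 2 of shCCN3 stood apart from the other libraries of its group: the chi-square statistic per degree of freedom was 37.1 and 45.2 for its pairs with them and 9.82 for the remaining pair. Among shCTRL libraries the statistic was 7.02 for replicates 1 and 2, 22.1 for 1 and 3 and 11.8 for 2 and 3. Results that rest on shCCN3 replicate 2 are therefore given with and without it. Genes on chromosome 7 were lower as a group (821 tested genes, median log2 fold change -0.43, 84.9% below 0) and genes on chromosome 6 were higher (891 tested genes, median 0.34, 22.1% below 0), while all tested genes had a median of 0.01. For the label, 8 of the 9 mesenchymal markers were above 25 CPM in both groups, among them VIM (vimentin) at 7775 and 7062 CPM, while EPCAM and CDH1 of the epithelium and CD3E and CDH5 of immune and endothelial cells were at or near 0. Other markers of those lists were present: the keratin gene KRT18 was at 163 CPM in shCTRL and 232 in shCCN3 cells, KRT8 at 19.99 and 13.9, the lysosomal gene CD68 at 102 and 58.5, and the endothelial gene PECAM1 at 3.57 and 3.43.

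Of the 6 receptors, NR3C2 rose and GPER1 fell in shCCN3 cells, NR3C1, PGR and ESR2 did not pass the test, and ESR1 had too few counts to be tested. Since RNA was taken from whole cultures, fewer cells with a transcript and less of it per cell cannot be told apart. NR3C2 was 1.60 times as high and GPER1 0.448 times as high as in shCTRL cells. Genes were tested by quasi-likelihood in edgeR, and p-values were adjusted by Benjamini and Hochberg's method over all 17419 genes left by a filter on low counts, and a gene is said to rise or fall where its adjusted p is under 0.05. By this rule 2 of the 5 tested receptors (40.0%) were called, beside 33.4% of all genes tested, so the count of receptors lay near the background and is no result about the family. Without shCCN3 replicate 2, 4 of the 5 were called, since NR3C1 and PGR then passed the test. The background rose too: 7229 of all genes were called in that fit, against 5825 with all 6 libraries. The count of 4 is therefore no result about the family either. The libraries of the groups did not overlap for 3 of the 5, NR3C2, PGR and GPER1, beside 46.3% of all genes.

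**Figure D1:**
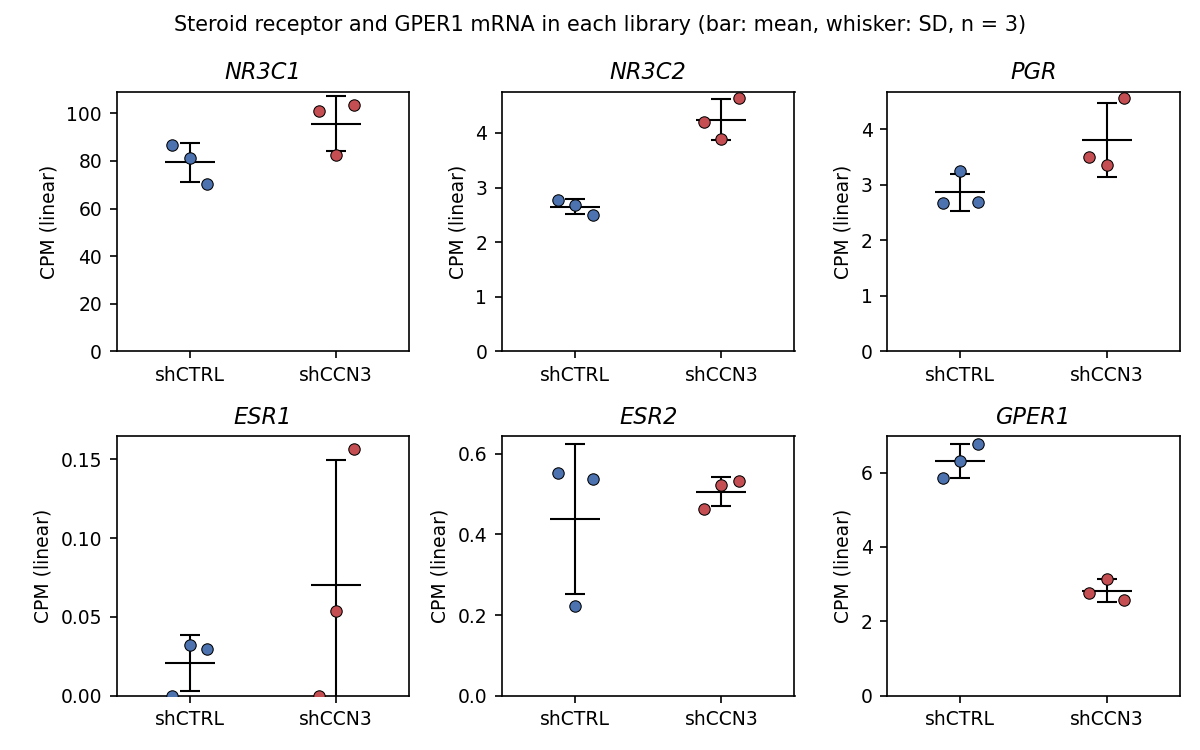
Level of each receptor in every library, in CPM on a linear axis starting at 0. Points are libraries, the long bar is the mean and the whisker the SD of 3 libraries, and each panel has its own scale. NR3C2 lies between 2.50 and 2.78 CPM in shCTRL and between 3.89 and 4.64 CPM in shCCN3 cells, GPER1 between 5.86 and 6.76 CPM and between 2.56 and 3.15 CPM.

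NR3C1 encodes the glucocorticoid receptor, the receptor of cortisol. It had by far the most counts of the 6 genes, from 4582 to 6959 in a library. Its level was 86.6, 81.2 and 70.3 CPM in replicates 1, 2 and 3 of shCTRL and 100.9, 82.4 and 103.5 CPM in those of shCCN3 cells. Replicates 1 and 3 of shCCN3 were above every shCTRL library, while replicate 2 lay below the highest of them, so the groups overlapped. The means were 79.4 ± 8.32 and 95.6 ± 11.5 CPM (SD, n = 3 each). The log2 fold change was 0.27 (SE 0.104, 95% interval 0.04 to 0.50) with an adjusted p of 0.0762 from edgeR, which is not past the threshold. Permuting the 6 libraries exactly gave a two-sided p of 0.2. Without shCCN3 replicate 2 the log2 fold change was 0.37 (adjusted p = 0.0044, edgeR). With all 6 libraries, DESeq2 gave 0.27 with an adjusted p of 0.0413. Whether NR3C1 is called thus depends on that library and on the test used.

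NR3C2 encodes the mineralocorticoid receptor, which binds aldosterone and also cortisol. The shCTRL libraries held 191, 168 and 168 counts and the shCCN3 libraries 290, 216 and 297. In CPM these were 2.78, 2.67 and 2.50 in shCTRL and 4.21, 3.89 and 4.64 in shCCN3 cells. Every shCCN3 library, replicate 2 included, was above every shCTRL library. The means were 2.65 ± 0.140 and 4.25 ± 0.380 CPM (SD, n = 3 each), and the log2 fold change was 0.68 (SE 0.126, 95% interval 0.39 to 0.97, adjusted p = 0.00292 from edgeR). The exact permutation p was 0.1, and no smaller p is possible with 3 replicates a group. The 616 genes tested on chromosome 4, where NR3C2 lies (148078764 to 148445322), had a median of 0.05, and 88.5% of them had a lower value than NR3C2. The 24 tested genes nearest to NR3C2 had a median of 0.02.

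PGR encodes the progesterone receptor, which in luminal breast cells is itself a target of ESR1. Its level was 2.66, 3.25 and 2.68 CPM in shCTRL and 3.50, 3.35 and 4.56 CPM in shCCN3 cells, so every shCCN3 library was above every shCTRL library, though replicate 2 of the groups differed by little. The means were 2.86 ± 0.332 and 3.80 ± 0.664 CPM (SD, n = 3 each). The log2 fold change was 0.41 (SE 0.161, 95% interval 0.05 to 0.77, adjusted p = 0.0799 from edgeR), which did not pass the test. It was 0.50 with an adjusted p of 0.0335 from edgeR without shCCN3 replicate 2. On chromosome 11 (101029624 to 101129813), the median over the 24 tested genes nearest to PGR was 0.27 on the log2 scale, and PGR stood 0.14 above them. Of the exon bases of PGR, 5.27% are shared with the antisense gene PGR-AS1, and whether the counting used the strand is not given in the sources used here.

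ESR1 encodes estrogen receptor alpha, the receptor that is stained for in diagnosis. It held 0, 2 and 2 counts in the shCTRL libraries and 0, 3 and 10 counts in the shCCN3 libraries. That is at most 3 counts in all libraries but shCCN3 replicate 3, where 10 counts made 0.156 CPM. The sums of 4 counts in shCTRL and 13 in shCCN3 cells were too few for the test. ESR1 mRNA was thus at or near the detection limit in both lines, and a difference between them was not detectable at this depth. ESR1 lies on chromosome 6 from 151656672 to 152129619.

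ESR2 encodes estrogen receptor beta. The shCTRL libraries held 38, 14 and 36 counts and the shCCN3 libraries 32, 29 and 34. The levels were 0.553, 0.223 and 0.536 CPM in shCTRL and 0.464, 0.522 and 0.531 CPM in shCCN3 cells, so the shCCN3 libraries lay within the range of the shCTRL libraries, whose replicate 2 was low. The log2 fold change was 0.20 (SE 0.361, adjusted p = 0.716 from edgeR), and its 95% interval from -0.61 to 1.02 covers changes in both directions. Without shCTRL replicate 2 the log2 fold change turned to -0.11. SYNE2, which runs over the ESR2 locus on the opposite strand with 0 shared exon bases, went from 44.5 ± 2.48 to 61.5 ± 12.6 CPM (SD, n = 3 each, log2 fold change 0.47, adjusted p = 0.0248 from edgeR), and its part in the ESR2 counts was not tested.

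GPER1 encodes the G protein-coupled estrogen receptor, a membrane protein unrelated to the nuclear receptors. The shCTRL libraries held 403, 396 and 454 counts and the shCCN3 libraries 191, 175 and 164. In CPM, the shCTRL libraries were at 5.86, 6.30 and 6.76 and the shCCN3 libraries at 2.77, 3.15 and 2.56. All shCCN3 libraries were below all shCTRL libraries by a wide margin. The means were 6.31 ± 0.450 and 2.83 ± 0.297 CPM (SD, n = 3 each), which gives -1.16 as log2 fold change (SE 0.124, 95% interval -1.44 to -0.88, adjusted p = 0.000113 from edgeR) with an exact permutation p of 0.1. GPER1 was the 1 receptor that changed at least 2-fold, beside 8.1% of all tested genes that did so in either direction and 3.93% that fell by as much.

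GPER1 lies on chromosome 7 (1087118 to 1093810), among genes that were also lower. On the log2 scale, the 24 tested genes nearest to it had a median of -0.56, compared with -0.43 for the 821 of the chromosome. GPER1 stood 0.60 below its neighbours and 0.73 below the chromosome on the log2 scale, and 7.43% of the tested genes of chromosome 7 had a lower value. GPER1 lies within C7orf50, a gene on the opposite strand with which it shares 0 exon bases and which fell from 43.1 ± 3.78 to 24.7 ± 4.70 CPM (SD, n = 3 each, log2 fold change -0.80, adjusted p = 0.00117 from edgeR). The part of C7orf50 and of the chromosome in the GPER1 value was not tested.

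**Figure D2:**
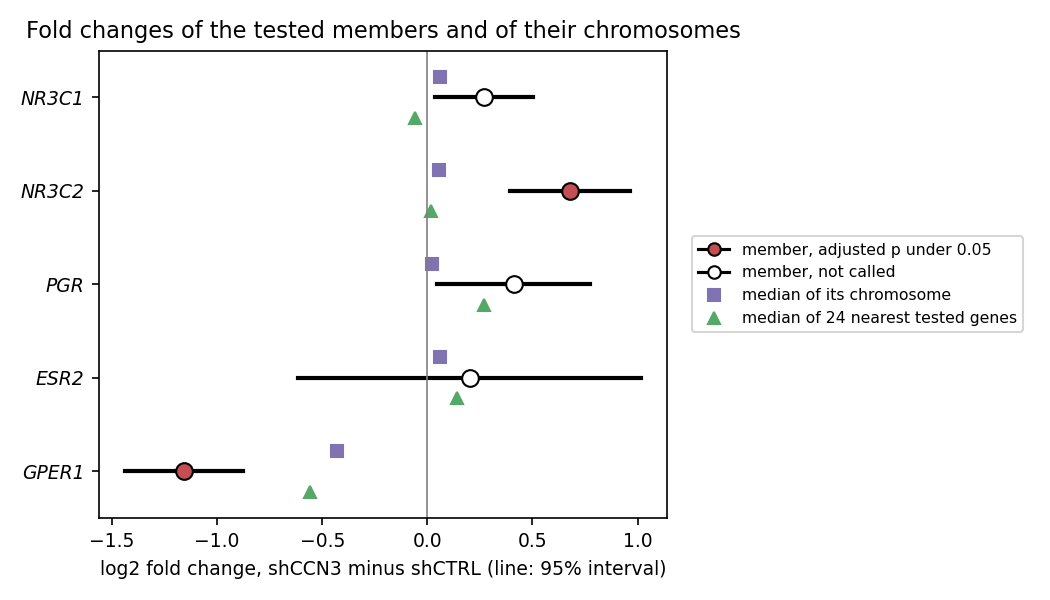
Log2 fold change of the 5 tested receptors, shCCN3 minus shCTRL, with 95% intervals (circles and lines), beside the median of all tested genes on the same chromosome (squares) and of the 24 nearest tested genes (triangles). The intervals of NR3C2 and GPER1 hold neither median, whereas the medians around GPER1, -0.43 and -0.56, are themselves below 0 and the neighbours of PGR, at 0.27, lie within its interval.

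Levels between genes were compared per kilobase of exon, since a long transcript yields more counts. The order was the same in both groups: NR3C1, GPER1, NR3C2, PGR, ESR2 and ESR1. In CPM per kilobase, NR3C1 was at 8.65 ± 0.907 in shCTRL and 10.4 ± 1.25 in shCCN3 cells, GPER1 at 2.0 ± 0.143 and 0.898 ± 0.0942, and NR3C2 at 0.401 ± 0.0211 and 0.643 ± 0.0574 (SD, n = 3 each). PGR was at 0.186 ± 0.0215 and 0.247 ± 0.0431, ESR2 at 0.0468 ± 0.0199 and 0.0542 ± 0.00390 on the same scale. The libraries of neighbours in this order did not overlap within either group.

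Ratios between receptors were taken within each library. The ratio of NR3C1 to NR3C2, both receptors for cortisol, was 22.5, 21.9 and 20.2 per kilobase in the shCTRL libraries and 17.3, 15.3 and 16.1 in the shCCN3 libraries. All shCCN3 libraries were lower, with means of 21.5 ± 1.15 and 16.2 ± 1.01 (SD, n = 3 each, exact permutation p = 0.1, two-sided, the smallest possible). The ratio of GPER1 to NR3C1 was 0.235 ± 0.0422 and 0.0878 ± 0.0207, and that of GPER1 to NR3C2 was 5.01 ± 0.624 in shCTRL and 1.41 ± 0.272 in shCCN3 cells (SD, n = 3 each, exact permutation p = 0.1 for both ratios). The ratio of PGR to NR3C2 was 0.464 ± 0.0551 and 0.383 ± 0.0346 (exact permutation p = 0.2, n = 3 each), and that of PGR to NR3C1 was 0.0216 ± 0.00291 and 0.0237 ± 0.00285 (exact permutation p = 0.4, n = 3 each), so neither separated the groups. With 5 pairs compared in total, no permutation p can fall under 0.05, before or after adjustment.

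Among 13633 genes with a mean of at least 1 CPM, those that moved most like each receptor over the 6 libraries were found by the Pearson correlation of log2 CPM. For GPER1 they were ADGRE1, DDRGK1 and PRPF38A (r of 0.9994 to 0.9998), and for NR3C2 they were ZNF43, FGF2 and SLC7A11 (0.9988 to 0.9997). NR3C1 was followed by HIVEP2, ERBIN and RCOR1 (0.9975 to 0.9986). PGR was followed by SUN2, KDM7A and INTS7 (0.981 to 0.982), and ESR2 by ACAP1, DUSP19 and SNURF (0.948 to 0.989). These values describe 6 libraries that fall into 2 groups, and the genes named are the 3 highest of many compared. Where a receptor differs between the groups, any gene with a like difference scores high. The groups overlapped for NR3C1 and ESR2, and SNURF had a log2 fold change of -0.16, against 0.20 for ESR2.

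The chaperones that hold unliganded receptors summed to 9169 to 9268 CPM in shCTRL and 10110 to 10460 CPM in shCCN3 libraries for 15 genes. Of these, 3 rose and 1 fell (26.7%, median log2 fold change 0.06), beside 33.4% of all genes. Without shCTRL replicate 3, 2 of the chaperone genes were called. In that fit 4683 of all genes were called, against 5825 with every library. HSP90AB1, a constitutive HSP90 encoded on chromosome 6, rose from 1549 ± 18.1 to 2038 ± 10.3 CPM (SD, n = 3 each, log2 fold change 0.40, adjusted p = 0.000210 from edgeR). HSP90AA1, the inducible form, rose by 0.24 and PPID, a cyclophilin of the receptor complex, by 0.28 on the log2 scale (adjusted p of 0.00911 and 0.00619), while DNAJB1, an HSP40 cochaperone, fell by 0.17 (adjusted p = 0.0333). FKBP4 and FKBP5, immunophilins that favour and restrain NR3C1 activity, did not pass the test, with log2 fold changes of 0.09 and -0.10. FKBP5 lies on chromosome 6.

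Of the 22 coregulators, 21 could be tested, and 2 rose and 3 fell (23.8%, beside 33.4% of all genes tested, median 0.10). NRIP1, a corepressor of ligand-bound receptors, rose from 12.3 to 17.1 CPM (log2 fold change 0.47, adjusted p = 0.0046 from edgeR), and NCOA3, a p160 coactivator amplified in some breast cancers, rose by 0.42 (adjusted p = 0.0133). SAFB2, a repressor of ESR1, fell by 0.38 (adjusted p = 0.00128), PPARGC1B, a coactivator of mitochondrial genes, by 0.55 (adjusted p = 0.0223) and KMT2C, a histone methyltransferase encoded on chromosome 7, by 0.34 (adjusted p = 0.0332). NCOA1 and NCOA2, the other p160 coactivators, had log2 fold changes of 0.17 and 0.37 and did not pass the test. The count was 12 without shCCN3 replicate 2. It was 2 without shCTRL replicate 2 or without shCCN3 replicate 1, so it depended on the library left out. In these fits, in the same order, 7229, 4181 and 4484 of all genes were called, against 5825 with every library.

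Of 8 transcription factors that work with ESR1 at its enhancers, all could be tested, and 4 rose and 1 fell (62.5%, median 0.28). Among all genes tested, the share called was 33.4%. Of the 4 factors that rose, 2, TFAP2A and MYB, lie on chromosome 6. XBP1, the effector of the unfolded protein response and a cofactor of ESR1, was at 115, 110 and 111 CPM in shCTRL and 167, 169 and 166 CPM in shCCN3 cells. These groups were far apart (log2 fold change 0.58, adjusted p = 4.64e-05 from edgeR). TFAP2A, encoding AP-2 alpha, rose from 52.6 ± 1.61 to 90.6 ± 10.7 CPM (SD, n = 3 each, log2 fold change 0.79, adjusted p = 0.00013), and TFAP2C, encoding AP-2 gamma, by 0.35 (adjusted p = 0.0155). MYB, a transcription factor induced by estrogen, rose by 0.57 (adjusted p = 0.00566). The luminal pioneer factors were low and did not pass the test: FOXA1 was at 3.01 and 3.47 CPM (adjusted p = 0.308) and GATA3 at 1.16 and 0.729 CPM (adjusted p = 0.0607).

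**Figure D3:**
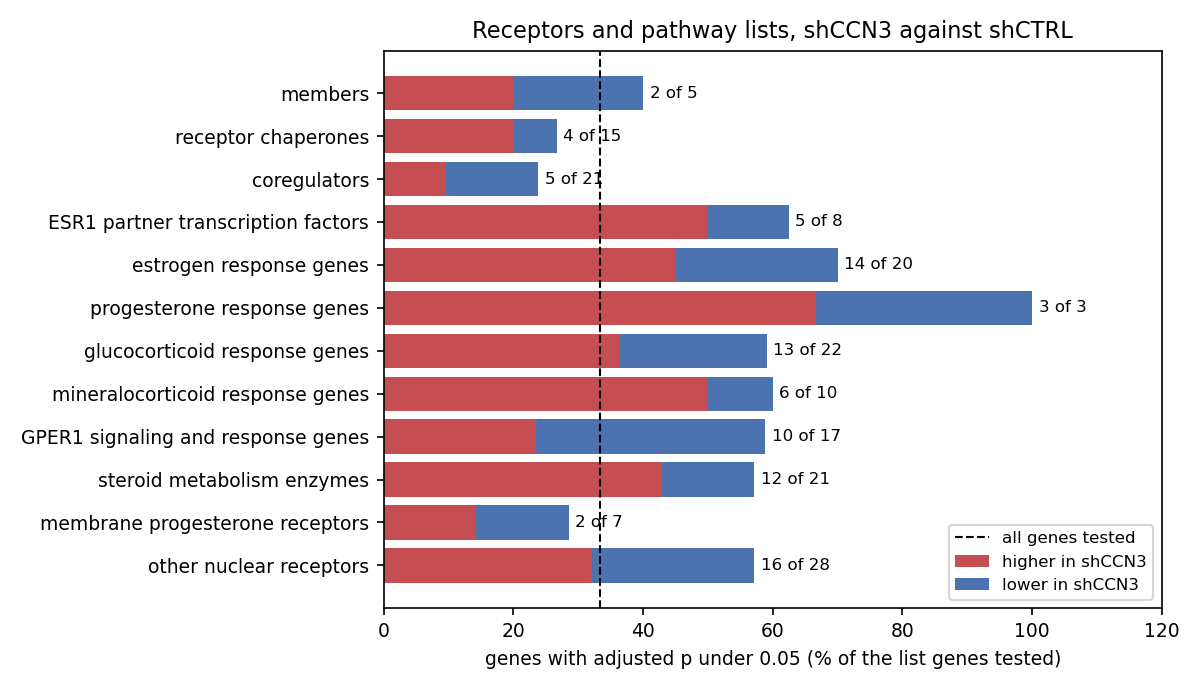
Share of the tested genes of each group with an adjusted p under 0.05 from edgeR, in percent, split into genes higher (red) and lower (blue) in shCCN3 cells. The dashed line is the share of all tested genes, 33.4%, and the labels give the number called of the number tested. Every group holds genes of both directions.

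Estrogen response genes moved without a common direction: of 26 genes, 20 could be tested, 9 rose and 5 fell (70.0%, median 0.12). This list and all the other gene lists here were chosen with earlier results of these data known, so their shares are descriptions only. The share was 33.4% among all genes tested and 37.5% among those with a mean of at least 1 CPM. TFF1, TFF3 and AGR2, genes that ESR1 strongly induces in luminal cells, had 0 counts in every library. CA12, a carbonic anhydrase, was at 147, 146 and 142 CPM in shCTRL and 63.7, 55.2 and 66.9 CPM in shCCN3 cells. That fall, with no overlap, was a log2 fold change of -1.23 (SE 0.076, adjusted p = 4.37e-06 from edgeR). CTSD, the lysosomal protease cathepsin D, fell from 1379 ± 112 to 950 ± 78.6 CPM (SD, n = 3 each, log2 fold change -0.54, adjusted p = 0.000791). RERG, a RAS-like growth inhibitor, rose from 0.577 ± 0.118 to 2.27 ± 0.287 CPM (log2 fold change 1.97, adjusted p = 0.000120), and MYC rose from 47.5 ± 2.51 to 68.6 ± 5.29 CPM (log2 fold change 0.53, adjusted p = 0.000593). GREB1, an ESR1 cofactor and target, was low, at 1.65 and 1.02 CPM, and did not pass the test (adjusted p = 0.0603).

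Of 8 progesterone response genes only 3 could be tested, and TNFSF11, HAND2, ID4 and CALCR had 0 counts in every library. STAT5A, a transcription factor of mammary differentiation, was at 4.55, 3.76 and 4.53 CPM in shCTRL and 10.4, 10.9 and 10.6 CPM in shCCN3 cells, a log2 fold change of 1.31 (SE 0.105, adjusted p = 1.95e-05 from edgeR). STAT5B, its close relative, rose by 0.43 (adjusted p = 0.00134). ELF5, a factor of the alveolar lineage that was named after its values were seen because the list is so short, had 21, 14 and 30 counts in shCTRL and 0 in every shCCN3 library. The shCTRL mean of ELF5 was 6.75 times the level that 3 counts per library would give in shCCN3 cells. The spread of the shCTRL libraries is left out of this value.

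Glucocorticoid response genes moved in both directions. Of 30 genes, 22 could be tested, and 8 rose and 5 fell (59.1%, beside 33.4% of all genes tested, median 0.03). DDIT4, an inhibitor of mTORC1 that stress also induces, was at 48.4, 46.1 and 50.5 CPM in shCTRL and 143, 158 and 144 CPM in shCCN3 cells. The groups were far apart, with a log2 fold change of 1.62 (SE 0.067, adjusted p = 4.34e-07 from edgeR). TSC22D3, which encodes the glucocorticoid-induced leucine zipper GILZ and whose GRE core is printed above, was at 10.9, 10.5 and 11.3 CPM in shCTRL and 19.2, 20.3 and 19.8 CPM in shCCN3 cells. All shCCN3 libraries were higher (log2 fold change 0.86, SE 0.074, adjusted p = 3.15e-05). CRISPLD2, a secreted glucocorticoid target, rose by 0.92 (adjusted p = 3.78e-05), and TNFAIP3, an inhibitor of NF-kB encoded on chromosome 6, by 0.96 (adjusted p = 4.99e-05). KLF9 and PER1, genes with GREs in their regulatory regions, rose by 0.60 and 0.27 (adjusted p of 0.00438 and 0.0401).

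ANGPTL4, a secreted inhibitor of lipoprotein lipase, fell from 2.73 ± 0.196 to 1.09 ± 0.247 CPM (SD, n = 3 each, log2 fold change -1.32, adjusted p = 0.000786 from edgeR), and DUSP1, a MAP kinase phosphatase, fell by 0.42 (adjusted p = 0.000995). FKBP5 and SGK1, among the most used readouts of NR3C1, did not pass the test, with log2 fold changes of -0.10 and 0.005. Both lie on chromosome 6, whose tested genes had a median of 0.34. The part of the chromosome in these values was not tested. FKBP5 was at 23.8, 22.7 and 21.2 CPM in shCTRL and 22.6, 17.9 and 22.4 CPM in shCCN3 cells (adjusted p = 0.477, 95% interval of the log2 fold change -0.33 to 0.12). SGK1 was at 28.9, 27.4 and 24.7 CPM in shCTRL and 28.7, 23.9 and 28.6 CPM in shCCN3 cells (adjusted p = 0.976, interval -0.21 to 0.22). The groups overlapped for both genes. The labels name no hormone treatment, so these are levels under the culture conditions of both lines.

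Of the 14 mineralocorticoid response genes, 10 could be tested, and 5 rose and 1 fell (60.0%, beside 33.4% of all genes tested, median 0.21). TSC22D3, PER1 and SGK1 stand in this list as well as in the previous one. The epithelial sodium channel subunits SCNN1B and SCNN1G and the potassium channel KCNJ1, classical targets in the kidney, had 0 counts in every library, and SCNN1A had 0 in every shCTRL and 4 to 9 in the shCCN3 libraries. EDN1, encoding endothelin 1 and located on chromosome 6, had 44, 89 and 88 counts in shCTRL and 744, 555 and 622 in shCCN3 libraries. It rose from 1.12 ± 0.421 to 10.2 ± 0.557 CPM (SD, n = 3 each, log2 fold change 3.18, SE 0.235, adjusted p = 1.18e-05 from edgeR). ATP1B1, the beta subunit of the sodium pump, rose by 0.58 (adjusted p = 0.00111). NDRG2, an early aldosterone target, rose from 0.722 ± 0.178 to 2.56 ± 0.440 CPM (log2 fold change 1.82, adjusted p = 0.000283).

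For GPER1, the list held G protein subunits, adenylyl cyclases, the EGFR branch and induced genes, all 17 tested. Of these, 4 rose and 6 fell (58.8%, beside 33.4% of all genes tested, median -0.07). The inhibitory subunits GNAI1, GNAI2 and GNAI3 fell by 0.32, 0.21 and 0.32 on the log2 scale (adjusted p of 0.00807, 0.0276 and 0.00346 from edgeR), and PRKACA, the catalytic subunit of protein kinase A, by 0.29 (adjusted p = 0.00573). GNAS, encoding the stimulatory subunit, did not pass the test (0.15, adjusted p = 0.0895), nor did ADCY3, ADCY6, ADCY7 or ADCY9. HBEGF and EGFR, the ligand and the receptor that GPER1 engages, fell by 0.93 and 0.85 (adjusted p of 5.89e-05 and 0.000465). EGFR and GNAI1 lie on chromosome 7, like GPER1. Among genes that GPER1 signaling can induce, EGR1 rose from 1.68 ± 0.152 to 4.14 ± 0.299 CPM and ATF3 from 3.60 ± 0.620 to 8.99 ± 0.542 CPM (SD, n = 3 each, log2 fold changes 1.30 and 1.32, adjusted p of 0.000108 and 8.32e-05), and CCN2, encoded on chromosome 6, rose by 3.20 (adjusted p = 3.95e-08). FOS, another immediate early gene, was at 1.45 and 1.29 CPM and did not pass the test (adjusted p = 0.49).

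**Figure D4:**
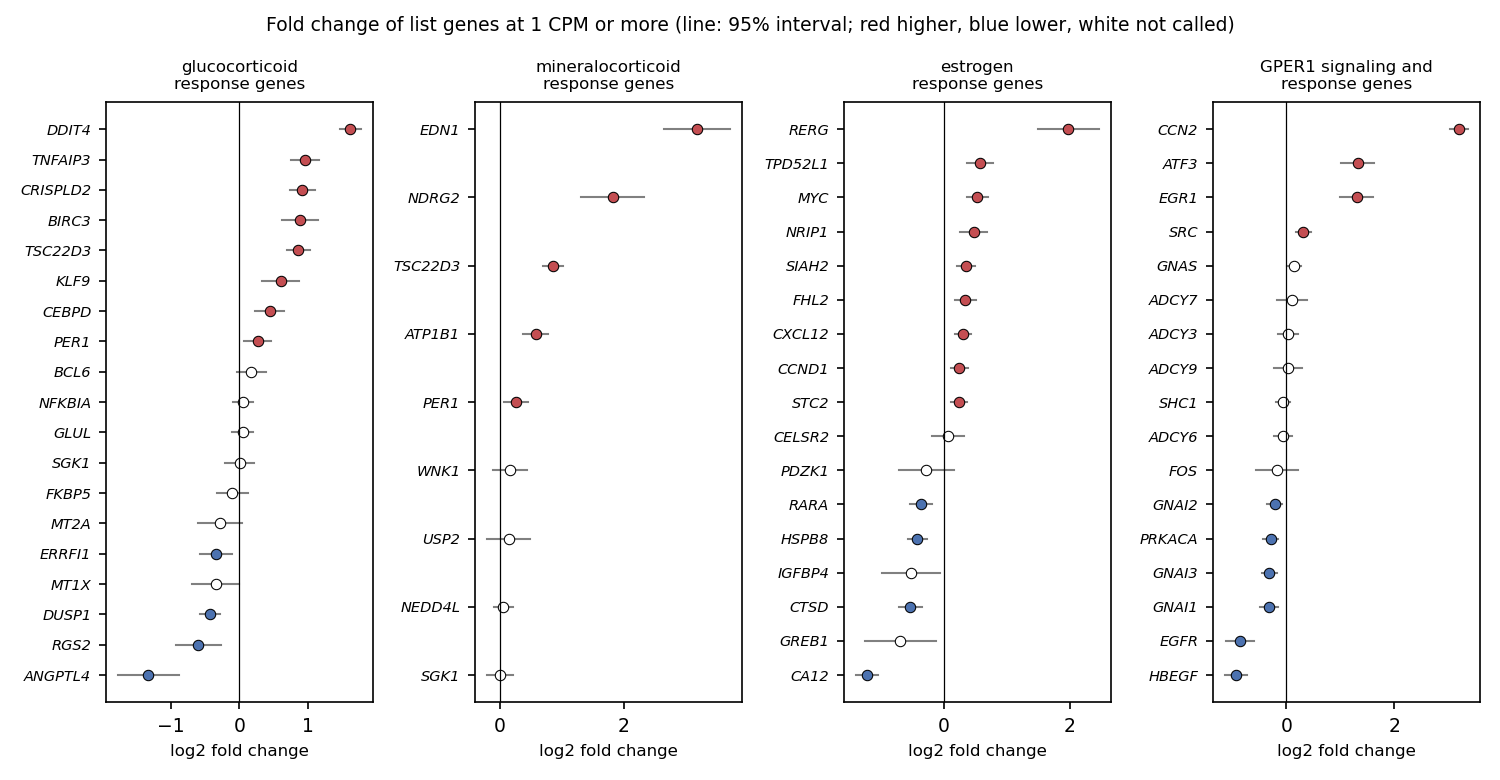
Log2 fold change, shCCN3 minus shCTRL, with 95% intervals, of response genes with a mean of at least 1 CPM that are reported here, for glucocorticoid, mineralocorticoid, estrogen and GPER1 lists. Red genes are higher, blue genes lower and white genes not called, and the horizontal scales differ between panels. The glucocorticoid, estrogen and GPER1 panels hold called genes on both sides of 0, and values run from 3.20 for CCN2 to -1.32 for ANGPTL4.

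Enzymes that make or inactivate the ligands were tested in 21 of 39 cases. Of these, 9 rose and 3 fell (57.1%, beside 33.4% of all genes tested, median 0.16). Enzymes of de novo synthesis were not detected: CYP11A1, CYP17A1, CYP11B1, CYP11B2, HSD3B1 and HSD3B2 had 0 counts in every library, and the aromatase CYP19A1 was at 0 to 0.0104 CPM in the group means. HSD11B1, which makes cortisol from cortisone, was also near 0, and HSD11B2, which inactivates cortisol, was at 0.249 and 0.219 CPM (adjusted p = 0.821). AKR1C1, which reduces progesterone to an inactive form, was at 175, 182 and 202 CPM in shCTRL and 487, 589 and 505 CPM in shCCN3 cells (log2 fold change 1.50, SE 0.088, adjusted p = 3.08e-06 from edgeR). AKR1C2 rose by 1.41 and AKR1C3 by 0.51 (adjusted p of 1.56e-05 and 0.00204), but the AKR1C genes are closely related and the split of reads among them is uncertain. H6PD, which supplies NADPH to HSD11B1, fell from 53.9 ± 1.61 to 31.0 ± 2.92 CPM (SD, n = 3 each, log2 fold change -0.80, adjusted p = 6.83e-05). HSD3B7, an enzyme of bile acid synthesis, fell from 28.3 ± 1.98 to 12.9 ± 0.675 CPM (log2 fold change -1.14, adjusted p = 1.01e-05).

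Beside PGR, progesterone is bound by membrane proteins. Of 8 such genes, 7 could be tested, and 1 rose and 1 fell (28.6%, beside 33.4% of all genes tested, median -0.19). Without shCTRL replicate 2, 1 was called in total. In that fit 4181 of all genes were called, against 5825 with every library. PGRMC2, a heme-binding membrane protein, was at 68.1, 65.8 and 68.6 CPM in shCTRL and 103, 107 and 107 CPM in shCCN3 cells, with no overlap (log2 fold change 0.64, SE 0.055, adjusted p = 2.85e-05 from edgeR). PGRMC1, its paralog, fell from 90.5 ± 0.736 to 77.1 ± 1.70 CPM (SD, n = 3 each, log2 fold change -0.23, adjusted p = 0.00918). The receptors PAQR7 and PAQR6 did not pass the test (log2 fold changes of -0.19 and 0.26, adjusted p of 0.0763 and 0.105). Per kilobase of exon, PGRMC2 stood at 14.6 and 22.8 CPM in shCTRL and shCCN3 cells, above the 0.186 and 0.247 of PGR given earlier.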

How the data were processed

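Libraries were prepared from poly(A) RNA of 3 shCTRL and 3 shCCN3 samples. The authors deposited raw read counts per gene for 46427 genes, without normalization. The submitters' processing notes name bcl2fastq 2.20.0, Trimmomatic, HISAT2 2.1.0, StringTie and DESeq2. The annotation, and whether counting used the strand, are not given in the sources used here, so overlapping genes are uncertain. Groups came from the sample labels, which state independent biological replicates.

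Levels (CPM), log2 fold changes and tests came from edgeR 4.0.16 under R 4.3.3 (TMM, edgeR's filter on low counts, quasi-likelihood test, Benjamini-Hochberg adjustment over the 17419 genes tested, no block). SE is the fold change over the root of F. The authors' DESeq2 was run as an alternative (1.42.0). Others were DESeq2's size factors, upper-quartile scaling, no filter, at least 10 counts in every library, limma-voom (limma 3.58.1), a replicate block, each library left out, and the chromosome median subtracted. The subtraction of the median of the 24 nearest tested genes was chosen after seeing the data. Exon lengths came from GENCODE on GRCh38 and positions from RefSeq GRCh38.p14, which 44698 Gene IDs matched.

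The members and gene lists were chosen with earlier results of these data known. Named genes were all receptors, the 4 genes of a list with the smallest adjusted p and a mean of at least 1 CPM, and any list gene at that level with at least a 2-fold change. Further genes were named after their values were seen, as background to their list. The values of 4 list genes are not reported here, though they are in the counts of their lists. Scripts were tested on simulated data.

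Same-numbered replicates of the groups deviated together with correlations of 0.0891, -0.0256 and -0.0657, so the numbers were not taken to pair samples.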

Additional observations from a re-analysis of the deposited data

How the results depend on the processing

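The log2 fold change of NR3C2 stayed between 0.61 and 0.74 and was called in all 13 alternatives that test it (adjusted p 0.000111 to 0.015). GPER1 was called in the same 13, with adjusted p of 2.25e-13 to 0.00114. The subtractions of a chromosome or neighbour median give a value with no test, and GPER1 then stood at -0.73 against its chromosome and -0.60 against its 24 nearest tested genes. PGR stood at 0.14 against its neighbours and reached 0.50 (adjusted p 0.0335) without shCCN3 replicate 2, and its adjusted p ranged from 0.0335 to 0.285. NR3C1 passed with DESeq2 (0.27, adjusted p 0.0413) and without shCCN3 replicate 2 (0.37), and its adjusted p ranged from 0.0044 to 0.232. ESR2 reversed to -0.11 without shCTRL replicate 2, and its adjusted p ranged from 0.521 to 0.84.

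With a library left out, log2 fold changes ranged from -0.11 to 0.40 for ESR2, 0.26 to 0.51 for PGR, 0.19 to 0.37 for NR3C1, 0.61 to 0.74 for NR3C2 and -1.24 to -1.09 for GPER1. Counts of called genes ranged from 2 to 4 for the receptors, 2 to 4 for chaperones, 2 to 12 for coregulators, 1 to 3 for membrane progesterone receptors, 9 to 17 for other nuclear receptors and 4181 to 7229 for all genes, the highest being without shCCN3 replicate 2. The cause was not tested.

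With a replicate block, 4887 of all genes and 2 receptors were called, and log2 fold changes were 0.26 for ESR2, 0.40 for PGR, 0.27 for NR3C1, 0.68 for NR3C2 and -1.16 for GPER1. The block called 3 chaperones, 5 coregulators, 5 partner factors, 14 estrogen, 3 progesterone, 12 glucocorticoid, 5 mineralocorticoid and 9 GPER1 response genes and 11 enzymes. It called 1 membrane progesterone receptor in place of 2 and 10 other nuclear receptors in place of 16. Counting depth limits ESR1 and ESR2 most.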

Other observations

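Of 42 nuclear receptors beyond those for steroid hormones, 28 could be tested, and 9 rose and 7 fell (57.1%, median log2 fold change -0.04, beside 33.4% of all genes). With shCTRL replicate 2 left out 9 were called, and in that fit 4181 of all genes were called, against 5825 with every library. RXRA, the shared partner of many nuclear receptors, was at 108, 113 and 106 CPM in shCTRL and 68.7, 67.5 and 69.7 CPM in shCCN3 cells, with no overlap (log2 fold change -0.67, SE 0.057, adjusted p = 2.79e-05 from edgeR). RXRB, its paralog, rose by 0.42 (adjusted p = 0.00102) and PPARD, a fatty acid receptor, by 0.46 (adjusted p = 0.000780), and both lie on chromosome 6. NR2F2, an orphan receptor of mesenchymal tissues, fell from 57.1 ± 3.99 to 32.0 ± 3.46 CPM (SD, n = 3 each, log2 fold change -0.83, adjusted p = 0.000132), while NR2F1, its close relative, rose by 0.20 (adjusted p = 0.0342). THRB and VDR, the receptors for thyroid hormone and vitamin D, fell by 0.93 and 0.44 (adjusted p of 0.00195 and 0.0177).

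Among markers of breast epithelium, ERBB2, which encodes HER2, was at 77.9 ± 5.49 CPM in shCTRL cells and was 78.2 ± 0.898 CPM with the CCN3 shRNA (SD over 3 libraries each, adjusted p = 0.952 from edgeR, 95% interval of the log2 fold change -0.14 to 0.16). Of 11 luminal markers, ESR1 and PGR included, 7 could be tested and 2 were called (28.6%, beside 33.4% of all genes). KRT18 rose by 0.51 and KRT8, the keratin it pairs with, fell by 0.52 (adjusted p of 0.00172 and 0.00221). All 4 testable basal markers of 6 rose, beside 16.2% of all tested genes, among them KRT14 from 0.161 to 2.11 CPM, TP63 from 5.87 to 9.94 CPM, and KRT17 from 3 counts in total to between 85 and 94 counts in each library. Of 9 mesenchymal markers, SNAI2 and CDH2 rose by 0.92 and 0.87 (adjusted p of 4.30e-05 and 9.06e-05), and the other 7 did not pass the test. Of 8 immune and endothelial markers, 4 could be tested and CD68, a lysosomal protein, fell from 102 to 58.5 CPM (adjusted p = 1.78e-05). The part of these markers in the receptor values was not tested.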
